A study of Mus musculus with 48 samples.

Results

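The YAP-TEAD pathway was described here through 10 genes chosen by symbol: the coactivators Yap1 and Wwtr1 (the gene of TAZ), their DNA-binding partner Tead1, the inhibitory kinases Lats1 and Lats2, the target genes Ctgf (also named Ccn2), Cyr61 (also named Ccn1) and Ankrd1, the target and inhibitor Amotl2, and the LATS-binding adaptor Ajuba. They are 10 of the 50600 genes listed in the count tables, and were chosen with earlier results of these data known. Their shares beside those of all genes are therefore descriptions. All 10 were among the 13889 genes kept by the filter on low counts.
In the Hippo pathway, the kinases MST1 and MST2 activate LATS1 and LATS2, which phosphorylate YAP and TAZ and keep them in the cytoplasm, where they are degraded. When the kinases are inactive, YAP and TAZ enter the nucleus, bind TEAD factors and switch on genes such as Ctgf, Cyr61 and Ankrd1. Some of their targets, including Lats2 and Amotl2, act back on YAP as inhibitors. In pancreatic ductal adenocarcinoma, YAP is known for its part in tumour growth.
The cells were mPDAC, a cell line from a mouse pancreatic ductal adenocarcinoma of FVB/N x C57BL6 background, labelled as 8-week-old. They were given 50 µM of N6L, a pseudopeptide that binds the RNA-binding protein nucleolin, for 48 h, or were left non-treated. Every group came from this 1 line, and all cells received emetine, which freezes ribosomes on mRNA, before lysis and removal of nuclei and mitochondria by centrifugation. From each lysate, polyA+ RNA of the cytoplasm and of the pooled polysomal fractions of a sucrose gradient was sequenced, for 3 non-treated cultures (numbered 1, 2 and 4) and 3 N6L cultures (numbered 1, 2 and 3), which gave 12 libraries.
The deposited values were raw read counts per gene. Totals per library ran from 21178243 to 32662204 in non-treated cytoplasm, from 23576921 to 44972333 in N6L cytoplasm, from 19519911 to 37612780 in non-treated polysomes and from 26642830 to 30474881 in N6L polysomes. In no library did any of the 10 genes have fewer than 393 reads. Levels are given as CPM, the standard unit in which a gene's count is divided by the TMM-scaled total of its library, so each is relative to the other mRNAs of its library. Fewer cells with an mRNA and less of it per cell cannot be told apart in such bulk samples, nor does a change shared by all mRNAs appear. The labels do not say whether the cultures were grown separately, and the p-values measure the spread between these samples.
The epithelial label was checked against marker genes. Krt18, Krt8 and Krt19, keratins of ductal cells, averaged 3464, 2773 and 1623 CPM over the 12 libraries, and Cdh1, the gene of E-cadherin, 100.3 CPM, while Epcam (0.116 CPM) and Cldn4 (0.0320 CPM) stayed under 1 CPM in every library. The markers of fibroblasts (7 of 7) and of endothelial cells (4 of 4) were under 1 CPM in every library, with Col1a1 (0.673 CPM) and Cdh5 (0.337 CPM) as the most abundant of each. Of 5 leukocyte markers 3 were under 1 CPM throughout, and the most abundant, Cd68, averaged 1.42 CPM. Of 6 acinar markers 5 were under 1 CPM throughout, and the remaining one, Cela1, averaged 44.9 CPM.
The promoters are shown because TEAD factors bind the letters GGAATG, read as CATTCC on the other strand. The 250 bases before the start site, taken from RefSeq promoters of GRCm38.p6, are given 5′ to 3′ on the strand of the gene for 3 targets, with these letters in capitals. Those of Cyr61 lie at chr3:145649986-145650235 on the minus strand, those of Ankrd1 at chr19:36119845-36120094 on the minus strand and those of Amotl2 at chr9:102717554-102717803 on the plus strand.
Cyr61: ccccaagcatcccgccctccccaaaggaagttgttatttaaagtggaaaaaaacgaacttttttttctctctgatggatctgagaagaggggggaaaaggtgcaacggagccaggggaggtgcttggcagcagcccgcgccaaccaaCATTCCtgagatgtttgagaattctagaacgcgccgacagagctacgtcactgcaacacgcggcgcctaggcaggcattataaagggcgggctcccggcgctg
Ankrd1: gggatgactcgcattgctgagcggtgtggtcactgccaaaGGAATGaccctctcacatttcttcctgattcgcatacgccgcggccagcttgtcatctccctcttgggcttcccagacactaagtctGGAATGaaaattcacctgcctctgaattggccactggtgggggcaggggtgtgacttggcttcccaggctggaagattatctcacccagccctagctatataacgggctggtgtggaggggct
Amotl2: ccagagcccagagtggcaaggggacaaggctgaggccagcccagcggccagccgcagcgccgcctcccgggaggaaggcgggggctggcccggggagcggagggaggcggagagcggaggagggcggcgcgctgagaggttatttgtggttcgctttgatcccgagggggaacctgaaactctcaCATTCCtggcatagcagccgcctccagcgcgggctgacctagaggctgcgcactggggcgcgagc
In Cyr61 the match begins 103 bases before the start site and in Amotl2 65 bases, while Ankrd1 holds 2 matches, at 210 and 123 bases. Of the 10 genes 8 were found in the table by symbol, Ctgf and Tead1 not being among them, and 6 of the 8 held the letters: besides these 3, Yap1 (141 bases before its start), Wwtr1 (136 and 170 bases before its 2 listed starts, which is the same match) and Ajuba (186 and 164 bases). The windows of Lats1 and Lats2 held none. Among all 32851 promoters in RefSeq's table, a share of 12.6% held the letters, and 14.4% of the 27025 genes. The AP-1 letters TGANTCA, searched on both strands, were in 6.75% of promoters, and the CArG box bound by SRF in 1.47%. No listed promoter of the 8 genes held either, and those of Ctgf and Tead1 were not searched. These are matches of letters, not measured binding.
With N6L, 7 of the 10 genes were higher in the cytoplasm and none was lower (edgeR, quasi-likelihood test, FDR under 0.05 by the Benjamini-Hochberg method over all genes tested). Among all genes 14.5% were higher and 13.8% lower by the same rule. In the polysomes 2 of the 10, Ctgf and Cyr61, were higher and none was lower, against 6.01% and 3.66% of all genes. The median log2 change of the 10 genes was 0.73 in the cytoplasm and 0.25 in the polysomes, and that of all genes was 0.04 and 0.00. All 3 N6L cultures lay above all 3 non-treated cultures for 8 of the 10 genes in the cytoplasm (29.3% of all genes) and for 3 of the 10 in the polysomes (13.7% of all genes). DESeq2 gave 7 and 2 calls as well. It called 15.3% of all genes higher and 17.8% lower in the cytoplasm, and 8.09% and 6.55% in the polysomes.

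**Figure D1:**
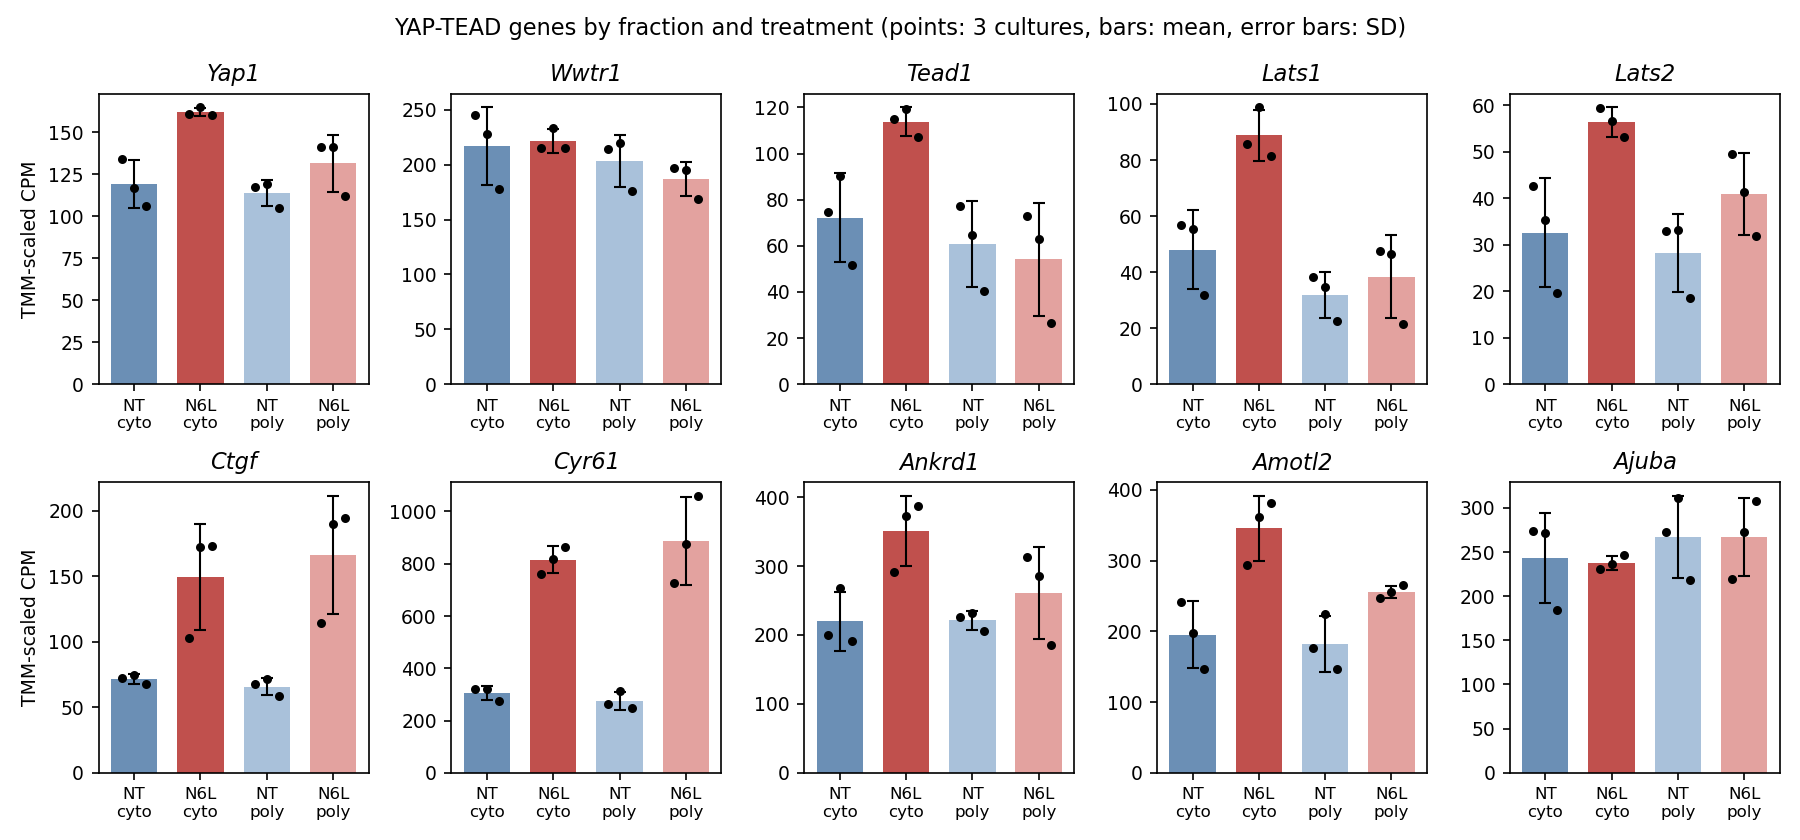
TMM-scaled CPM (vertical axis, linear, from 0) of the 10 genes in non-treated (NT, blue) and N6L-treated (red) cytoplasm and in the corresponding polysomes (paler). Points are the 3 cultures in the order of their numbers, bars their mean and error bars the SD. For Ctgf and Cyr61 the N6L points lie above the NT points in both fractions.

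The cytoplasmic count of 7 depended on the cultures, as did the share of all genes called higher in the same fit. With a non-treated culture left out, the count was 4 (7.49% of all genes) for culture 1, 4 (10.8%) for culture 2 and 3 (6.97%) for culture 4. With an N6L culture left out, it was 4 (12.5%) for culture 1, 2 (4.02%) for culture 2 and 7 (15.3%) for culture 3. Only Ctgf and Cyr61 passed in both fractions under every alternative run for this comparison in each fraction.
Cyr61 (ENSMUSG00000028195, chr3:145646976-145649981, minus strand, GRCm38) and Ctgf (ENSMUSG00000019997, chr10:24595442-24598683, plus strand) encode secreted matricellular proteins of the CCN family and are among the common readouts of YAP activity. Cyr61 stood at 319, 320.0 and 274 CPM in the cytoplasm of non-treated cultures 1, 2 and 4 and at 762, 820.0 and 865 CPM in that of N6L cultures 1, 2 and 3. In the polysomes it stood at 261, 312 and 249 CPM without treatment and at 726, 877 and 1059.9 CPM with N6L. The treatments were far apart in both fractions, and the polysomes of N6L culture 3 held the highest value.
The log2 change of Cyr61 was 1.42 in the cytoplasm (standard error 0.16, FDR 0.000486, edgeR) and 1.69 in the polysomes (standard error 0.16, FDR 0.000252), or 2.68-fold and 3.24-fold. When single cultures were left out, the change stayed between 1.32 and 1.47 in the cytoplasm and between 1.55 and 1.82 in the polysomes.
Ctgf stood at 72.6, 74.5 and 67.5 CPM in non-treated cytoplasm and at 103, 173 and 173 CPM in N6L cytoplasm. In the polysomes the values were 67.8, 71.2 and 58.2 CPM and 114, 190.04 and 195 CPM. The treatments did not overlap, but N6L culture 1 was well below the other N6L cultures in both fractions.
The log2 change of Ctgf was 1.06 in the cytoplasm (standard error 0.23, FDR 0.00535, edgeR) and 1.34 in the polysomes (standard error 0.23, FDR 0.00435), or 2.09-fold and 2.53-fold. Its lowest cytoplasmic value over the left-out cultures was 0.90, and the highest FDR was 0.0495.
Ankrd1 (ENSMUSG00000024803, chr19:36111961-36120099, minus strand) encodes a cardiac ankyrin repeat protein of the nucleus and the sarcomere, and is a direct target of YAP. Its cytoplasmic values were 199, 269 and 191 CPM without treatment and 292, 373 and 387 CPM with N6L, without overlap. Its polysomal values were 226, 231 and 206 CPM and 312, 286 and 186 CPM, so that N6L culture 3 fell below all non-treated cultures while the other N6L cultures lay above them. Ankrd1 rose in the cytoplasm by a log2 value of 0.67 (standard error 0.20, FDR 0.0240, edgeR), whereas its polysomal log2 change of 0.24 did not pass (FDR 0.473). The cytoplasmic call was lost without non-treated culture 1 (FDR 0.102), non-treated culture 4 (FDR 0.116) or N6L culture 2 (FDR 0.134).
Amotl2 (ENSMUSG00000032531, chr9:102716672-102733418, plus strand) encodes an angiomotin-like scaffold that holds YAP at cell junctions and is itself a YAP target. Its cytoplasmic values were 242, 198 and 147 CPM without treatment and 294, 361 and 382 CPM with N6L. In the polysomes they were 177, 225 and 146 CPM and 248, 255 and 265 CPM. The treatments did not overlap in either fraction, and the N6L polysomes were close together. Amotl2 rose in the cytoplasm (log2 change 0.82, standard error 0.20, FDR 0.00957, edgeR) and the polysomal change of 0.49 missed the limit (standard error 0.20, FDR 0.130). Without N6L culture 2 the cytoplasmic FDR was 0.0719.
Yap1 (ENSMUSG00000053110, chr9:7931999-8004596, minus strand) encodes the coactivator YAP. Its cytoplasmic values were 134, 117 and 106 CPM without treatment and 161, 165 and 161 CPM with N6L. Its polysomal values were 118, 119 and 105 CPM and 141, 141 and 112 CPM. The cytoplasmic N6L values were nearly equal and all above the non-treated ones, while in the polysomes N6L culture 3 lay among the non-treated cultures. Yap1 rose in the cytoplasm by a log2 value of 0.44 (standard error 0.14, FDR 0.0345, edgeR), the smallest of the 7 called changes, and its polysomal change was 0.21 (FDR 0.386). The cytoplasmic call rested on the whole set of cultures, since only 1 of the 6 fits with a culture left out kept it, and it was also lost without the filter on low counts (FDR 0.0645) and with an offset for transcript length and GC content, which gave 0.18 (FDR 0.169).
Wwtr1 (ENSMUSG00000027803, chr3:57455649-57575910, minus strand), the gene of the YAP paralog TAZ, overlapped between treatments in both fractions. It stood at 245, 228 and 178 CPM in non-treated and 215, 234 and 216 CPM in N6L cytoplasm. In the polysomes it stood at 214, 219.7 and 176 CPM and at 197, 195 and 169 CPM. Its log2 changes were 0.03 (standard error 0.15) and -0.12 (standard error 0.15), and neither passed (FDR 0.901 and 0.661, edgeR). The sign of the cytoplasmic value changed with the scaling, being -0.01 with RLE size factors.
Tead1 (ENSMUSG00000055320, chr7:112679318-112906807, plus strand) encodes a TEAD factor, a member of the family through which YAP and TAZ reach DNA. It stood at 74.8, 90.2 and 51.8 CPM in non-treated and at 115, 119 and 107 CPM in N6L cytoplasm. In the polysomes it stood at 77.3, 64.8 and 40.5 CPM and at 73.0, 62.8 and 26.5 CPM. The cytoplasmic values did not overlap between treatments, but the non-treated ones spread widely, and in the polysomes culture 3 of N6L was the lowest of all. The cytoplasmic log2 change of 0.65 (standard error 0.32, FDR 0.131, edgeR) and the polysomal one of -0.17 (standard error 0.32, FDR 0.776) did not pass. A fit of the cytoplasmic libraries alone gave a cytoplasmic change of 0.62 that passed (FDR 0.0180), as did a fit without the filter on low counts (0.70, FDR 0.00448). An offset for transcript length and GC content brought the cytoplasmic change to 0.19 (FDR 0.511), and it was 0.43 without non-treated culture 4 (FDR 0.366). The polysomal value was 0.16 without N6L culture 3.
Lats1 (ENSMUSG00000040021, chr10:7681214-7716460, plus strand) and Lats2 (ENSMUSG00000021959, chr14:57689662-57758388, minus strand) encode the kinases that phosphorylate YAP and TAZ. Lats1 stood at 56.7, 55.5 and 31.7 CPM in non-treated and at 85.9, 98.8 and 81.6 CPM in N6L cytoplasm. Lats2 stood at 42.6, 35.4 and 19.7 CPM and at 59.4, 56.6 and 53.2 CPM. For both kinases the cytoplasmic treatments did not overlap and non-treated culture 4 was far below the other non-treated cultures. Both rose in the cytoplasm, Lats1 by a log2 value of 0.89 (standard error 0.29, FDR 0.0372, edgeR) and Lats2 by 0.79 (standard error 0.27, FDR 0.0438).
In the polysomes Lats1 stood at 38.4, 34.8 and 22.7 CPM without treatment and at 47.4, 46.4 and 21.4 CPM with N6L. Lats2 stood there at 33.0, 33.1 and 18.6 CPM and at 49.6, 41.4 and 31.9 CPM. The treatments overlapped for both, and the log2 changes of 0.27 and 0.54 did not pass (FDR 0.599 and 0.226, edgeR). With single cultures left out, these polysomal changes ran from 0.087 to 0.56 for Lats1 and from 0.32 to 0.69 for Lats2. In the 6 fits with a culture left out, Lats1 kept its cytoplasmic call in 1 and Lats2 in 2. An offset for transcript length and GC content brought the cytoplasmic change of Lats1 to 0.51 (FDR 0.0368) and that of Lats2 to 0.60 (FDR 0.0733). Without non-treated culture 4 the cytoplasmic changes were 0.63 for Lats1 (FDR 0.141) and 0.50 for Lats2 (FDR 0.102).
Ajuba (ENSMUSG00000022178, chr14:54567472-54577558, minus strand) encodes a LIM-domain adaptor that binds LATS kinases and restrains them. Its cytoplasmic values were 273, 271 and 184 CPM without treatment and 231, 237 and 247 CPM with N6L. Its polysomal values were 273, 311 and 218 CPM and 219.8, 273 and 308 CPM. The treatments overlapped in both fractions, and the log2 changes were -0.03 (standard error 0.19, FDR 0.921, edgeR) and -0.00 (standard error 0.19, FDR 0.997), with a sign that turned under some scalings, to 0.11 and 0.07 with library size alone.

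**Figure D2:**
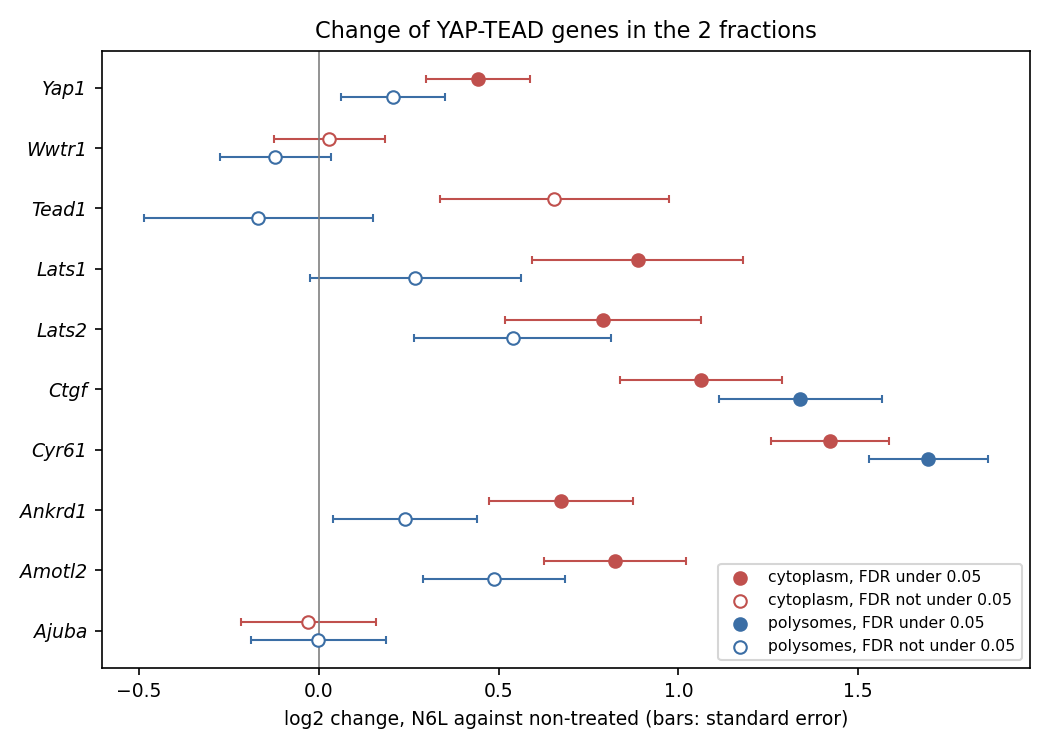
Log2 change between N6L-treated and non-treated cultures (horizontal axis) of the 10 genes in the cytoplasm (red) and in the polysomes (blue), with standard errors from the fit of all 12 libraries. Filled points passed an FDR of 0.05. There are 7 of them in the cytoplasm, and in the polysomes only those of Ctgf and Cyr61.

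Levels of different genes were compared per kilobase of the longest annotated transcript. In non-treated cytoplasm Cyr61 was the highest at 151 ± 13.0 CPM per kilobase (SD, n = 3 cultures), followed by Ankrd1 (109 ± 21.1), Ajuba (71.5 ± 15.02), Wwtr1 (46.2 ± 7.49), Amotl2 (44.1 ± 10.7), Ctgf (28.7 ± 1.44) and Yap1 (22.6 ± 2.68). Tead1 (7.25 ± 1.94), Lats1 (6.65 ± 1.95) and Lats2 (6.27 ± 2.26) were the lowest. Neighbours in this order had separate ranges over the cultures except Wwtr1 and Amotl2, Tead1 and Lats1, and Lats1 and Lats2. The kinases and Tead1 were thus the least abundant.
The polysome-to-cytoplasm ratio compares the polysomal share of an mRNA with its cytoplasmic level, and was taken within each culture on the log2 scale. The cytoplasmic RNA came from an aliquot of the lysate that was not run on the gradient, so it includes polysomal mRNA. The ratio thus sets a part against the whole. In non-treated cultures none of the 10 genes differed between the fractions by edgeR or DESeq2, and none had an unadjusted p under 0.05. The background there was 29 genes, or 0.209%, by edgeR, and 1855 of all genes tested had an unadjusted p under 0.05. In N6L cultures Lats1 and Tead1 were lower in the polysomes than in the cytoplasm and none of the 10 was higher, where 20.6% of all genes were lower and 18.4% higher.
Lats1 had log2 ratios of -0.56, -0.67 and -0.48 in non-treated cultures 1, 2 and 4 and of -0.86, -1.09 and -1.93 in N6L cultures 1, 2 and 3. Tead1 had ratios of 0.05, -0.48 and -0.35 and of -0.66, -0.92 and -2.01. For both genes every N6L culture lay below every non-treated culture, and culture 3 stood far below the other N6L cultures. The fitted log2 difference of polysomes from cytoplasm under N6L was -1.21 for Lats1 (standard error 0.30, FDR 0.00848, edgeR) and -1.07 for Tead1 (standard error 0.32, FDR 0.0189).
Because the 2 fractions of a culture come from 1 lysate, the same difference was also fitted with the culture as a block. In this fit 27.6% of all genes were lower in N6L polysomes, and 5 of the 10 genes: Lats1 (FDR 0.00186, edgeR), Tead1 (FDR 0.00335), Lats2 (-0.48, FDR 0.0119), Amotl2 (-0.43, FDR 0.0231) and Yap1 (-0.31, FDR 0.0366). Without the block, Lats1 and Tead1 lost their calls without N6L culture 2 (FDR 0.0528 and 0.0784), and Tead1 lost its call without N6L culture 3 (-0.79, FDR 0.0827). The transcripts are also long, with a median longest transcript of 4562 bases against 3102 for all genes tested, and an offset for length and GC content brought the values to -0.56 (FDR 0.0325) for Lats1 and -0.45 (FDR 0.138) for Tead1. With the offset and the culture block together, 19.5% of all genes and again 5 of the 10 were lower. Yap1 turned to 0.16 and lost its call (FDR 0.143), Ankrd1 gained one (-0.50, FDR 0.0492), and Lats1 (-0.58, FDR 0.00370), Tead1 (-0.49, FDR 0.0383), Lats2 (-0.32, FDR 0.0375) and Amotl2 (-0.54, FDR 0.0105) were lower as well.
Ctgf was the 1 gene of the 10 with every N6L ratio above every non-treated ratio, with -0.10, -0.06 and -0.21 without treatment and 0.16, 0.14 and 0.17 with N6L. Cyr61 had ratios of -0.29, -0.04 and -0.14 and of -0.07, 0.10 and 0.29, which overlapped. For both target mRNAs the polysomal level was thus close to the cytoplasmic one in every culture, within a log2 ratio of -0.29 to 0.29. All 3 N6L ratios lay below the non-treated ones for 2 genes (14.4% of all genes) and above them for 1 (15.3%).

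**Figure D3:**
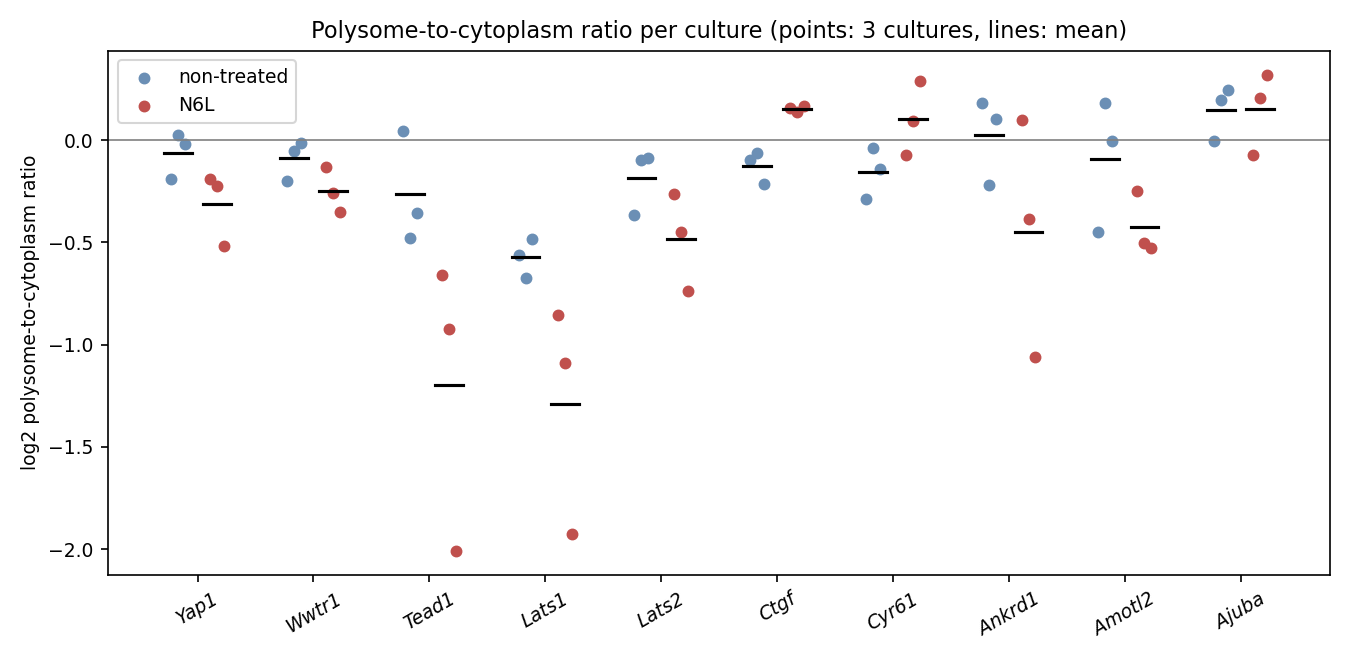
Log2 ratio of the polysomal to the cytoplasmic level (vertical axis) of the 10 genes in each non-treated (blue) and N6L-treated (red) culture, with black lines at the means. N6L culture 3 is the lowest point of Tead1 (-2.01), Lats1 (-1.93), Ankrd1 (-1.06), Lats2 (-0.74), Amotl2 (-0.53), Yap1 (-0.52) and Wwtr1 (-0.35). It is the highest point of Ajuba (0.32), Cyr61 (0.29) and Ctgf (0.17). The N6L points of Ctgf are close together above 0, with its non-treated points below 0.

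The difference of these ratios between treatments, the translational index, was tested as 1 contrast, and none of the 10 genes passed by edgeR or DESeq2. None had an unadjusted p under 0.05. Of all genes 0% passed by either tool, and the smallest FDR was 0.555, although 1074 genes had an unadjusted p under 0.05. The index was -0.82 for Tead1 (standard error 0.45), -0.62 for Lats1 (0.41), -0.43 for Ankrd1 (0.28), -0.34 for Amotl2 (0.28), -0.25 for Lats2 (0.38) and -0.24 for Yap1 (0.20), and 0.27 for both Ctgf (0.32) and Cyr61 (0.23). Wwtr1 had an index of -0.15 (0.22) and Ajuba one of 0.03 (0.26). The values depended on the cultures. With single cultures left out, the index ran from -1.09 to -0.54 for Tead1, -0.82 to -0.39 for Lats1 and -0.70 to -0.16 for Ankrd1. It ran from -0.54 to -0.17 for Amotl2, -0.37 to -0.14 for Lats2, -0.31 to -0.14 for Yap1 and 0.17 to 0.35 for Cyr61. An offset for length and GC content gave -0.48 for Tead1 and -0.28 for Lats1. Per culture, an exact two-sided permutation test of the ratios gave p = 0.1 for Tead1, Lats1 and Ctgf, the smallest value that 3 cultures against 3 allow. An unequal change in the 2 fractions was thus not shown for any of these genes.
The rest of the pathway was taken from lists of known components, whose counts stand against the shares of all genes given above: 14.5% higher and 13.8% lower in the cytoplasm, and 6.01% higher and 3.66% lower in the polysomes. None of the 5 genes tested from the kinase core (Stk3, Stk4, Sav1, Mob1a and Mob1b, the kinases MST2 and MST1 with their adaptors) changed with N6L in either fraction by edgeR or DESeq2, and none had an unadjusted p under 0.05. Such a p was found for 5907 of the 13889 genes tested in the cytoplasm and for 3684 in the polysomes. The median log2 change of the 5 core genes was 0.25 in the cytoplasm and -0.15 in the polysomes, against 0.04 and 0.00 for all genes. Stk3 averaged 44.0 ± 7.49 CPM in non-treated and 52.4 ± 8.32 CPM in N6L cytoplasm (SD, n = 3 each).
Of 28 upstream regulators, 26 were tested, and 12 were higher and 1 was lower in N6L cytoplasm (14.5% and 13.8% of all genes). Their median log2 change was 0.39, against 0.04 for all genes. Ptpn14, a phosphatase that binds YAP, went from 7.56 ± 0.162 to 13.3 ± 0.681 CPM (log2 change 0.82, FDR 0.00259, edgeR). Strn3, a scaffold of the STRIPAK phosphatase complex that acts on MST kinases, rose by a log2 value of 1.42 (FDR 0.00893), and Tjp1, the tight junction protein ZO-1, by 1.37 (FDR 0.0148). The kinases Taok3 (0.71, FDR 0.00976) and Mink1 (0.70, FDR 0.0100) and the polarity gene Pals1, also named Mpp5 (0.89, FDR 0.0107), rose as well. The gene that was lower, Fgfr1op2, another STRIPAK member and named after its values were seen, fell in the cytoplasm by 0.52 on the log2 scale (FDR 0.0202) and in the polysomes by 0.55 (FDR 0.0366).
In the polysomes Fgfr1op2 was the 1 call of these 26 regulators, a share close to the 3.66% of all genes lower there. None was higher (6.01% of all genes), with 6 genes at an unadjusted p under 0.05 and 2 calls by DESeq2. Among all 13889 genes tested, 3684 had such a p, and DESeq2 called 8.09% higher and 6.55% lower. The median log2 change of the 26 regulators in the polysomes was 0.02, against 0.00 for all genes. Ptpn14, for example, had 7.59 ± 0.521 CPM in non-treated and 8.75 ± 0.607 CPM in N6L polysomes.
Among the other TEAD and VGLL genes, 4 of 7 were expressed highly enough to be tested. In the cytoplasm 1 of the 4 was higher (14.5% of all genes) and in the polysomes 2 were (6.01%), and none was lower in either fraction. Vgll4, whose product competes with YAP for TEAD, went from 25.4 ± 7.07 to 46.9 ± 4.45 CPM in the cytoplasm (log2 change 0.88, FDR 0.0114, edgeR) and from 29.3 ± 7.55 to 49.3 ± 3.41 CPM in the polysomes (0.75, FDR 0.0456). Tead3 rose in the polysomes (0.64, FDR 0.0414) and had a cytoplasmic change of 0.44 that did not pass (FDR 0.0807). Tead4 (-0.34 in the cytoplasm, FDR 0.144, and -0.42 in the polysomes, FDR 0.132) and Tead2 (-0.17, FDR 0.542, and 0.18, FDR 0.605) did not pass in either fraction. Vgll1, Vgll2 and Vgll3 had mean levels of 0, 0.0456 and 0.00964 CPM.
Of the 6 genes tested from a list of kinases and ubiquitin ligases, grouped under YAP and TAZ turnover, 3 were higher in N6L cytoplasm (14.5% of all genes). These were the ubiquitin ligase genes Nedd4 (0.84, FDR 0.0278) and Itch (0.82, FDR 0.0372) and the casein kinase gene Csnk1d (0.41, FDR 0.0408). Whether Nedd4 and Itch act on YAP and TAZ or on other proteins of the pathway was not tested. None was lower (13.8% of all genes). In the polysomes, where 6.01% of all genes were higher and 3.66% lower, none passed by edgeR, 2 had an unadjusted p under 0.05, and DESeq2 called 1. The background was 3684 of 13889 genes at such a p, and 8.09% higher and 6.55% lower by DESeq2.
A published signature of YAP target genes holds 22 genes, of which 17 are not among the 10 genes above, and 16 of these 17 were tested. In the cytoplasm 6 of the 16 were higher and 1 lower (14.5% and 13.8% of all genes), and the median log2 change was 0.41, against 0.04 for all genes. F3, the gene of tissue factor, went from 43.7 ± 8.53 to 81.8 ± 11.1 CPM (log2 change 0.91, FDR 0.00794, edgeR), and Asap1 (0.74, FDR 0.0181), Crim1 (0.78, FDR 0.0391) and the kinase gene Nuak2 (0.67, FDR 0.0152) rose too. Ptpn14 belongs to this list as well as to the regulators.
Gadd45a, a stress gene that also responds to p53, moved the other way. It went from 290.1 ± 32.7 to 133 ± 3.74 CPM in the cytoplasm and from 317 ± 52.2 to 157 ± 9.80 CPM in the polysomes, and fell by 1.13 (FDR 0.000847) and 1.01 (FDR 0.00223) on the log2 scale. In the polysomes it was 1 of 2 calls among the 16, the other being the higher Nuak2 (0.68, FDR 0.0306), where 3.66% of all genes were lower and 6.01% higher.

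**Figure D4:**
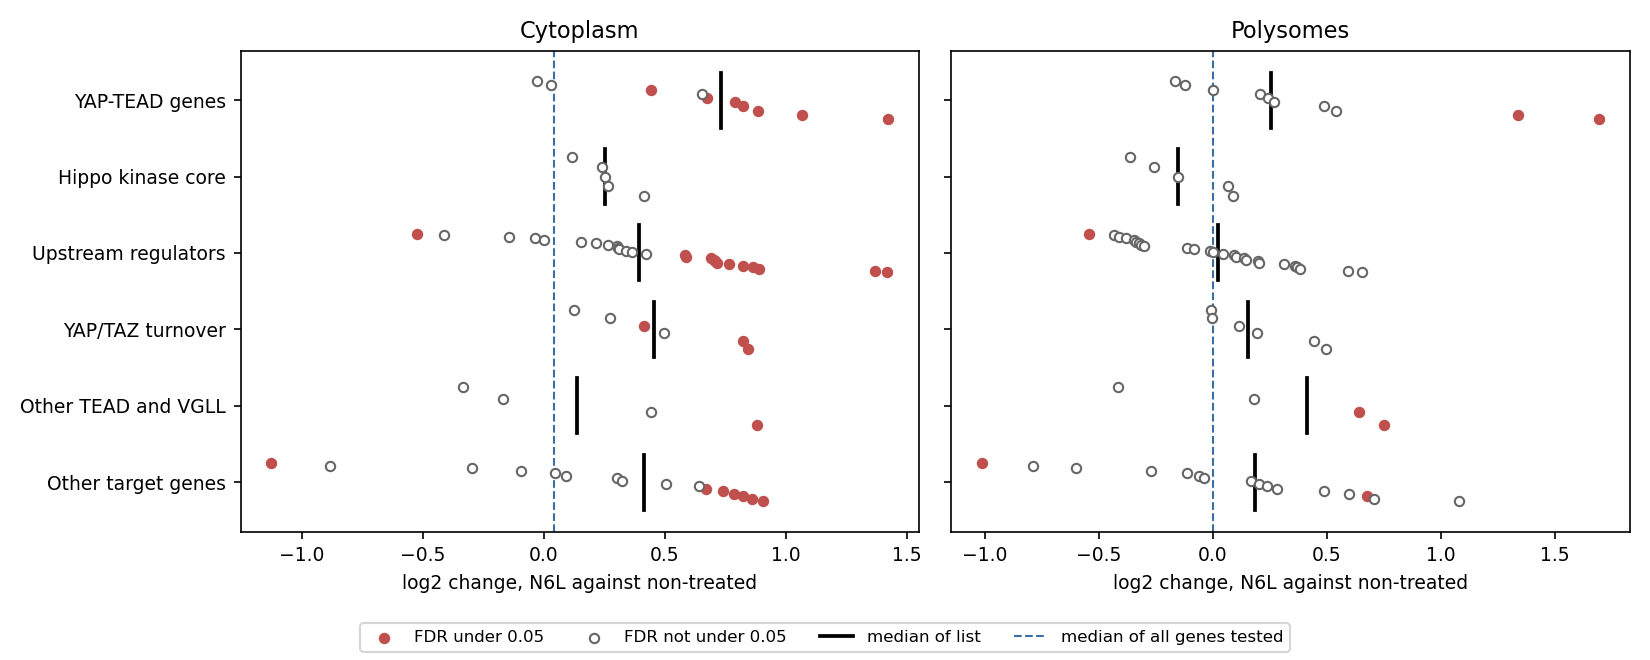
Log2 change between N6L-treated and non-treated cultures (horizontal axis) in the cytoplasm (left) and the polysomes (right), 1 point a gene, for the 10 genes and for the lists of other pathway genes. Red points passed an FDR of 0.05, short black lines are the medians of the lists, and the dashed line is the median of all genes tested. The red point furthest to the left in both panels is Gadd45a.

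Over the 12 libraries the log2 levels of the 10 genes varied together to different degrees. Pearson's r was 0.954 for Ctgf with Cyr61, 0.941 for Tead1 with Lats1 and 0.932 for Yap1 with Lats2, and -0.145 for Tead1 with Ajuba, the lowest of all pairs. These are descriptions, since the libraries share treatments, lysates and scaling. The genes outside the group whose levels were most like that of Ctgf were Lif (0.990), Hbegf (0.983) and C730027H18Rik (0.983). Those most like Cyr61 were Bmf, Zfp36 and Nr4a1 (0.983, 0.983 and 0.982), and those most like Yap1 were Ncoa2, Usp22 and Cpsf7 (0.989, 0.987 and 0.987).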

How the data were processed

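PolyA+ RNA from the cytoplasm and polysomes of 6 mPDAC cultures was sequenced with a stranded kit. The submitters' processing notes name bcl2fastq 2.18.0.12, STAR, HTSeq 0.5.3 and the genome build mm10. Which annotation was used, and whether counting used strand, is not given in the sources used here. The authors deposited raw counts per gene, not normalized, in 48 tables, 4 technical replicates for each of 12 libraries, which differed by about the sampling noise and were summed. For 3 technical replicates of N6L cytoplasm culture 2 the labels disagree on the culture number. They were kept with culture 2 (chi-square per degree of freedom 1.01 to 1.04, against 11.2 to 11.4 with culture 1).
Symbols, coordinates and the length and GC content of the longest transcript were taken from GENCODE vM21 (GRCm38), in which 50376 of 50600 genes were found. No entry named no gene. Counts were filtered with filterByExpr, scaled by TMM and tested by the quasi-likelihood method of edgeR 4.0.16 (R 4.3.3), with a mean per group for all 4 groups and Benjamini-Hochberg adjustment over 13889 genes and a limit of 0.05. The common biological coefficient of variation was 0.197. CPM values are TMM-scaled, and log2 CPM values carry a prior count of 2. The steps were tested on simulated data. Alternatives were DESeq2 1.42.0, other scalings and filters, left-out cultures, blocks, fits of only the groups compared, and an offset per library for length and GC content.
The cytoplasm and polysomes of a culture are paired by their lysate. As a check, each library's deviation from its group mean was correlated with that of its partner, which gave r = 0.364 (culture 1), 0.452 (culture 2) and 0.645 (culture 4) without treatment. With N6L, r was 0.0368 (culture 1), 0.199 (culture 2) and 0.229 (culture 3).
The 10 genes and the pathway lists were chosen with earlier results of these data known. All 10 were named, with at most 6 called genes of each list by smallest FDR in the treatment comparisons, and the 3 genes, among those averaging 10 CPM or more, with levels most like those of Yap1, Ctgf and Cyr61. Exceptions are named where they stand.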

Additional observations from a re-analysis of the deposited data

How the results depend on the processing

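Members called in the cytoplasm (7) ranged from 2 to 7 when single cultures were left out, and in the N6L polysome-to-cytoplasm comparison (2) from 0 (without N6L culture 2) to 3 (leaving out culture 4 of the non-treated or culture 1 of N6L), and was 1 without N6L culture 3. The shares of all genes called lower were 5.66% and 8.64% in the fits without N6L culture 2 and without culture 3. They were 20.6% without non-treated culture 4 and 21.7% without N6L culture 1. The culture as a replicate block gave 5 there (27.6% of all genes lower), and with an offset for length and GC content another set of 5 (19.5%), with Ankrd1 (FDR 0.0492) in place of Yap1, but changed no call in non-treated cultures or in the index. The number of a culture, shared across treatments by name only (correlations 0.228 and 0.0455 in the cytoplasm, 0.296 and 0.00756 in the polysomes), gave 8 cytoplasmic calls as a block, adding Tead1 (FDR 0.0438), in a fit with 18.1% of all genes higher instead of 14.5%. No other count moved by over 1.5 times, but an offset for length and GC content ended the cytoplasmic calls of Yap1 and Lats2 (0.60, FDR 0.0733). In all, 25 of the values of single genes lost their call, 12 gained one and 39 changed sign, none of the last having been called in either fit. Of these last, the cytoplasmic change of Wwtr1 became -0.0054 with RLE size factors, -0.0055 with DESeq2, -0.0087 in a fit of the groups compared, -0.20 with the offset and -0.032 with the number as a block, and ran from -0.13 to 0.13 with a culture left out. That of Ajuba became 0.11 with library size alone and 0.013 without a filter, and ran from -0.22 to 0.064. Its polysomal change became 0.068 and 0.0057 under these settings, 0.0065 with at least 10 counts in every library and 0.0086 in a fit of the groups compared, and ran from -0.12 to 0.12. That of Tead1 ran from -0.44 to 0.16. In the N6L polysome-to-cytoplasm comparison, the offset, without and with the culture block, gave 0.17 and 0.16 for Yap1, 0.24 and 0.24 for Wwtr1, -0.16 and -0.17 for Cyr61 (-0.022 with library size alone) and -0.14 and -0.14 for Ajuba. The same 2 fits gave an index of 0.024 and 0.022 for Yap1, 0.12 and 0.11 for Wwtr1 and -0.12 and -0.14 for Ajuba. The index of Ajuba was -0.039 with library size alone and -0.0075 without a filter, and ran from -0.061 to 0.13. Library size alone moved the median cytoplasmic log2 change of all genes from 0.04 to 0.19. The causes were not tested.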

Other observations

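In N6L cultures the fractions were also compared for the upstream regulators and the kinase core. Of the 26 regulators tested, 16 were lower and 3 higher in the polysomes than in the cytoplasm (edgeR, FDR under 0.05) and 7 did not pass, where the background for all genes was 20.6% lower and 18.4% higher, and their median log2 difference was -0.60. Tjp1 had a difference of -2.04 (FDR 0.00430), Pals1 one of -1.22 (FDR 0.00430) and Strn3 one of -1.21 (FDR 0.0135). Of the 5 genes of the kinase core, 2 were lower, Stk3 (-1.32, FDR 0.00689) and Mob1b (-0.83, FDR 0.0160), both named after their values were seen, and 3 did not pass. In non-treated cultures none of either list passed by edgeR or DESeq2, where 0.209% of all genes passed by edgeR. The log2 difference there was -1.03 for Tjp1 (standard error 0.36), -0.71 for Pals1 (0.22) and -0.39 for Strn3 (0.33). For Stk3 it was -0.81 (0.30) and for Mob1b -0.35 (0.24). The median of the 26 regulators there was -0.04. There 6 of the regulators and 1 of the core genes had an unadjusted p under 0.05, as had 1855 of the 13889 genes tested. No index of either list passed.
Of the 6 CCN genes, Ctgf and Cyr61 stood at mean levels of 113 and 570 CPM over the 12 libraries, and the remaining 4 were under 1 CPM on average. Wisp1 (Ccn4) was the 1 of these 4 that could be tested, with 1.32 ± 0.191 CPM in non-treated and 0.657 ± 0.189 CPM in N6L cytoplasm (SD, n = 3 each, log2 change -0.96, edgeR FDR 0.0580). Its polysomal levels were 1.16 ± 0.424 and 0.499 ± 0.224 CPM (log2 change -1.15, edgeR FDR 0.0710). DESeq2 called all 3 tested CCN genes, Wisp1 included, in both fractions. By DESeq2, 15.3% of all genes were higher and 17.8% lower in the cytoplasm, and 8.09% and 6.55% in the polysomes.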
